A study of Mus musculus with 5 samples.

Results

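The 10 genes described here encode proteins of the later granules of mouse neutrophils. Ltf, Camp, Ngp, Lcn2, Chil3 and Fcnb were taken as the 6 secondary granule genes, and Mmp8, Mmp9, Retnlg and Wfdc21 as the 4 tertiary or late genes. They were chosen by name from the 28692 genes of the count matrices, and all 10 had a row in every library. The series profiled single bone marrow cells during the growth of BCR-ABL1 pre-B acute lymphoblastic leukaemia. It held 5 libraries, of 1 C57BL/6J mouse each, from the day of transfer (day 0) and from days 3, 6, 9 and 12. All 5 mice were 8 weeks old by the study's methods, were not irradiated, and received 1000 BCR-ABL1 pre-B ALL cells through the tail vein. The day 0 mouse received the cells too and was killed at once, so it is a control for time after transfer and not a mouse without the transplant. Marrow was flushed and collagenase-digested, red cells were lysed, and cells were cryopreserved before 10x Genomics 3′ v2 capture. With 1 mouse per day, the day, the mouse and the library cannot be told apart, and no value below has a replicate check.

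Neutrophils make their granule proteins in sequence as they mature in the marrow. Primary granule proteins are made by promyelocytes, secondary granule proteins by myelocytes and metamyelocytes, and tertiary (gelatinase) granule proteins by later band-stage cells. The transcription factor C/EBP epsilon is required for the secondary granule genes. Ltf encodes the iron-binding lactotransferrin, Camp the cathelicidin antimicrobial peptide, Ngp the neutrophilic granule protein, and Lcn2 the siderophore-binding lipocalin. Chil3 encodes the chitinase-like protein Ym1, which monocytes and macrophages can also make, and Fcnb the lectin ficolin B. Mmp8 and Mmp9 are the neutrophil collagenase and gelatinase, Retnlg is a resistin-like secreted protein, and Wfdc21 a whey acidic protein of the same type as secretory protease inhibitors.

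The genes lie on several chromosomes of GRCm38 (GENCODE vM21 positions). Camp (chr9:109847379-109849617, minus strand), Ngp (chr9:110419747-110423012, plus strand) and Ltf (chr9:111019271-111042767, plus strand) fall within 1195389 bp of chromosome 9, and Mmp8 (chr9:7558456-7568485) is far from them on the same chromosome. Lcn2 (chr2:32384633-32388252), Fcnb (chr2:28076378-28084885) and Mmp9 (chr2:164940780-164955850) are on chromosome 2. Chil3 is at chr3:106147554-106167564, Retnlg at chr16:48872621-48874496 and Wfdc21 at chr11:83746940-83752642. All 10 are protein-coding.

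RefSeq promoter windows on GRCm38.p6 were found for 8 of the 10 genes, the exceptions being Mmp9 and Wfdc21. The 250 bases before the RefSeq start were searched because several members have the same pattern along maturation (below). The letters TTGCNNAA, part of the sequence bound by C/EBP factors, were found on either strand in 6 of the 8 (Fcnb, Lcn2, Ltf, Mmp8, Ngp and Retnlg), and in 9.57% of all 32817 windows. A looser form, TTNNGNAA on either strand, which overlaps the first, was in 7 of 8 members and in 36.8% of all windows. AGGAAGT, a core of the PU.1 motif, was on either strand in 3 of 8 (Chil3, Fcnb and Mmp8) and in 7.69% of all windows. TATAAA on the gene's strand was in 0 of 8 and in 7.60% of all windows. A match of letters is a description and not a bound site. The Lcn2 window (chr2:32387740-32387989) lies inside the annotated gene, so its match is not before the annotated start. The windows below, cut at the gene's annotated start, are shown for the earliest gene, a pair of secondary genes and a pair of late genes. Each of them has a TTGCNNAA match, while Camp and Chil3, which had none, and Lcn2 are not shown. The letters run 5′ to 3′ along the gene, with TTGCNNAA or its reverse complement in capitals.
Fcnb, chr2:28084886-28085128, minus strand: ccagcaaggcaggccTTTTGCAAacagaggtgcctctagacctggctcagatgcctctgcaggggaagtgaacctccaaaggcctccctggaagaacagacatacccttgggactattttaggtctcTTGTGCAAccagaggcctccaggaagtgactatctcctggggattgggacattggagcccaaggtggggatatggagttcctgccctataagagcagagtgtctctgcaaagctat
Ngp, chr9:110419558-110419746, plus strand: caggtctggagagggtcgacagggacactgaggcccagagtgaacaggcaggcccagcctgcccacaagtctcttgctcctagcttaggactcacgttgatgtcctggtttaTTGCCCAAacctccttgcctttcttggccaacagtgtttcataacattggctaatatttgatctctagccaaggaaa
Ltf, chr9:111019042-111019270, plus strand: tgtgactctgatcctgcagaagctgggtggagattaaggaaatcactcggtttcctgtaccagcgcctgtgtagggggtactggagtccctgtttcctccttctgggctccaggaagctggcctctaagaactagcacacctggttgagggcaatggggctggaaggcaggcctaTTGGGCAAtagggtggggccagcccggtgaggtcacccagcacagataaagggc
Mmp8, chr9:7558179-7558428, plus strand: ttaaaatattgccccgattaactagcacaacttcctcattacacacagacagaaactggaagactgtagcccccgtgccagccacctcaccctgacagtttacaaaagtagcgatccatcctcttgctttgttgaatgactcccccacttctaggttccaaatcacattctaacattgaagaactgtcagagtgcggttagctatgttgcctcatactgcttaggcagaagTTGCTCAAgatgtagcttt
Retnlg, chr16:48872358-48872607, plus strand: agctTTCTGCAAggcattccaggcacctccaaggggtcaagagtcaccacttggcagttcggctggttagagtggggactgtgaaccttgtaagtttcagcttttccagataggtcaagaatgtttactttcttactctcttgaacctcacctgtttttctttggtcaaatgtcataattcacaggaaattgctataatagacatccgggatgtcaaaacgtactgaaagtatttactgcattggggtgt
Fcnb had 2 such matches, and the windows of Ltf, Mmp8 and Retnlg had 1 each. Ngp had 2, of which the one nearer to the RefSeq start lies past the end of the stretch shown.

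The libraries held 33425695 to 43554233 UMIs (unique molecular identifiers, which count captured RNA molecules). Barcodes with at least 500 UMIs numbered 32135, and 29679 remained after barcodes with over 10% mitochondrial UMIs were removed. Clusters were made without the 10 granule genes, and 17453 cells (58.8%) fell in 7 neutrophil-lineage stages named from other markers. The leading genes of the immature stage were AA467197, Ly6g and Ifitm6, and those of the mature stage Gm5483, Stfa2l1 and Cxcr2. Between 4.60% and 15.1% of the cells of a library stayed without a name. In order of a maturation index that does not use the granule genes, the stages were GMP/promyelocyte-like (216 cells), Cebpe+ promyelocyte-like (201), cycling immature (2349), immature (5210), Ceacam10-high (3043), mature (5578) and Cxcl2-high mature neutrophil-like cells (856). Library pairs shared 44 to 73 barcodes, near the 43.6 to 68.9 that pairs of random draws would share. Levels below are UMIs of a gene per 10000 UMIs of all cells of a class, and 95% intervals are exact and cover counting error only.

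The 10 genes made up a large part of the RNA captured from neutrophils. They took 12.2%, 12.8%, 11.9%, 11.8% and 11.8% of all UMIs of neutrophil-lineage cells in the libraries of day 0, 3, 6, 9 and 12. Their share was highest in immature cells, at 14.6% to 15.5%, and was 13.9% to 15.0% in cycling immature cells. It was 10.6% to 11.8% in Ceacam10-high cells and 6.75% to 8.29% in mature cells. In GMP/promyelocyte-like cells, which express the primary granule proteases, it was 0.542% to 0.704%. In cells thinned to 1000 UMIs each, the median immature cell held 142 to 148 UMIs of the 10 genes, and the median mature cell 58 to 80, depending on the day.

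Fcnb was the earliest of the genes. Its level in Cebpe+ promyelocyte-like cells was 16.6, 16.5, 16.2, 14.3 and 16.7 per 10000 in the day 0, 3, 6, 9 and 12 libraries. It was 7.38 to 8.41 in cycling immature cells, 1.18 to 1.99 in immature cells and 0.156 to 0.326 in mature cells. From GMP/promyelocyte-like to Cebpe+ promyelocyte-like cells it rose 6.82- to 17.8-fold, and from cycling to immature cells its level was 0.159 to 0.25 of that before. Thinned to 1000 UMIs per cell, Fcnb was detected in 59.0% to 84.6% of Cebpe+ promyelocyte-like cells, and in 1.78% to 3.40% of T-like cells, which should lack it. Without thinning the shares were 92.5% to 100% and 3.67% to 9.26%, at median depths of 11027 to 13633 and 2117 to 3018 UMIs.

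Camp was the most abundant of the 10. Its level in cycling immature cells was 728, 712, 675, 704 and 736 per 10000 across the days, or 733 to 883 UMIs per cell. The neighbouring immature stage held 647, 612, 565, 592 and 635. Camp rose 15.4- to 24.9-fold from GMP/promyelocyte-like to Cebpe+ promyelocyte-like cells. Chil3 had the same order at a lower level, with 62.8, 76.1, 80.4, 65.3 and 60.5 per 10000 in cycling immature cells and 36.5 to 46.1 in immature cells.

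Ltf, Ngp and Lcn2 were highest one stage later. Ltf was at 65.8, 79.1, 76.7, 73.7 and 77.3 per 10000 in immature cells, and at 39.7 to 59.0 in cycling immature cells. Ngp was at 451, 460, 440, 418 and 386 in immature cells and at 351 to 441 in cycling ones, so these neighbours were close. Lcn2 was at 148, 156, 154, 139 and 108 in immature cells, and day 12 lay below the other 4 days. In Cebpe+ promyelocyte-like cells Ltf was only at 2.38 to 7.15, and its step from there to cycling immature cells was 5.55- to 20.9-fold. Wfdc21, listed with the late genes, was also highest in immature cells, at 111, 102, 103, 109 and 123 per 10000. It fell less afterwards than the secondary genes, being at 86.5 to 111 in Ceacam10-high and 53.3 to 77.6 in mature cells.

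Mmp8, Mmp9 and Retnlg were the late genes. Mmp8 was at 13.4, 19.4, 20.7, 19.5 and 13.6 per 10000 in Ceacam10-high cells, and at 9.51 to 14.8 in mature cells. Mmp9 was at 10.4, 15.1, 15.2, 16.3 and 12.9 in Ceacam10-high cells and at 10.6, 13.7, 13.7, 14.0 and 14.0 in mature cells. Its higher stage was the Ceacam10-high one at days 3, 6 and 9 and the mature one at days 0 and 12, and at day 0 the intervals of both overlapped. Retnlg was at 463, 432, 399, 425 and 540 in mature cells, at 367 to 380 in Ceacam10-high cells and at 44.3 to 88.8 in immature cells. It was the last of the 10 to reach its highest level.

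**Figure D1:**
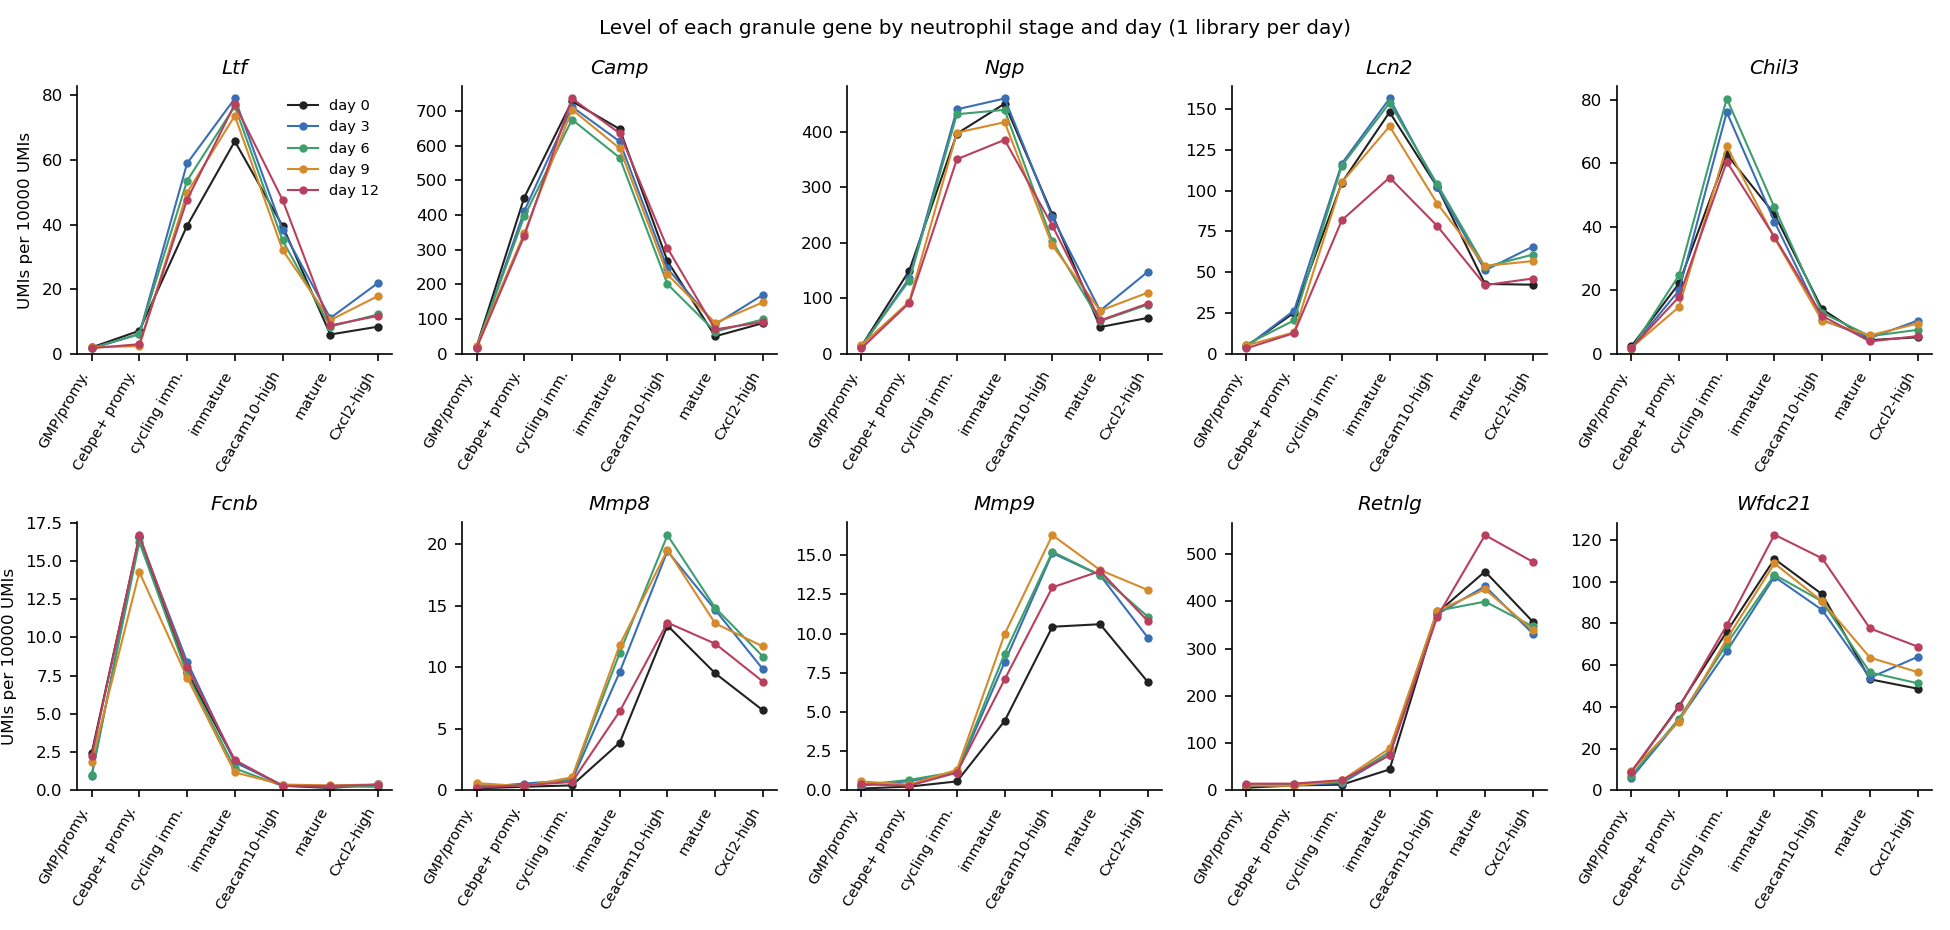
Level of each granule gene (vertical axis, UMIs per 10000 UMIs, from 0) in the 7 neutrophil-lineage stages in order of maturation (horizontal axis), with 1 line per day and 1 library behind each point. Fcnb is highest in Cebpe+ promyelocyte-like cells, Camp and Chil3 in cycling immature cells, Ltf, Ngp, Lcn2 and Wfdc21 in immature cells, Mmp8 in Ceacam10-high cells and Retnlg in mature cells on 5 of 5 days, while the 2 highest stages of Mmp9 change places between days.

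For 9 of the 10 genes the same stage was highest on 5 of 5 days, Mmp9 being the exception. Per cell instead of per 10000 UMIs, the cycling immature stage, whose cells held a median of 10827 UMIs against 4666 in immature and 2128 in mature cells, was highest for Ltf, Camp, Ngp, Lcn2, Chil3 and Wfdc21. Retnlg per cell was highest in Ceacam10-high cells at days 0, 3, 6 and 9 and in mature cells at day 12, and Mmp9 per cell in Ceacam10-high cells on 5 of 5 days. For Ltf, Ngp, Lcn2 and Wfdc21, for Retnlg at days 0 to 9, and for Mmp9 at days 0 and 12, the highest stage thus depends on the scale. Along 10 bins of equal cell number of the maturation index with all days pooled, the highest bin was 1 for Fcnb, 2 for Camp and Chil3, 3 for Ngp and Lcn2, 4 for Ltf and Wfdc21, 6 for Mmp8 and Mmp9, and 8 for Retnlg.

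**Figure D2:**
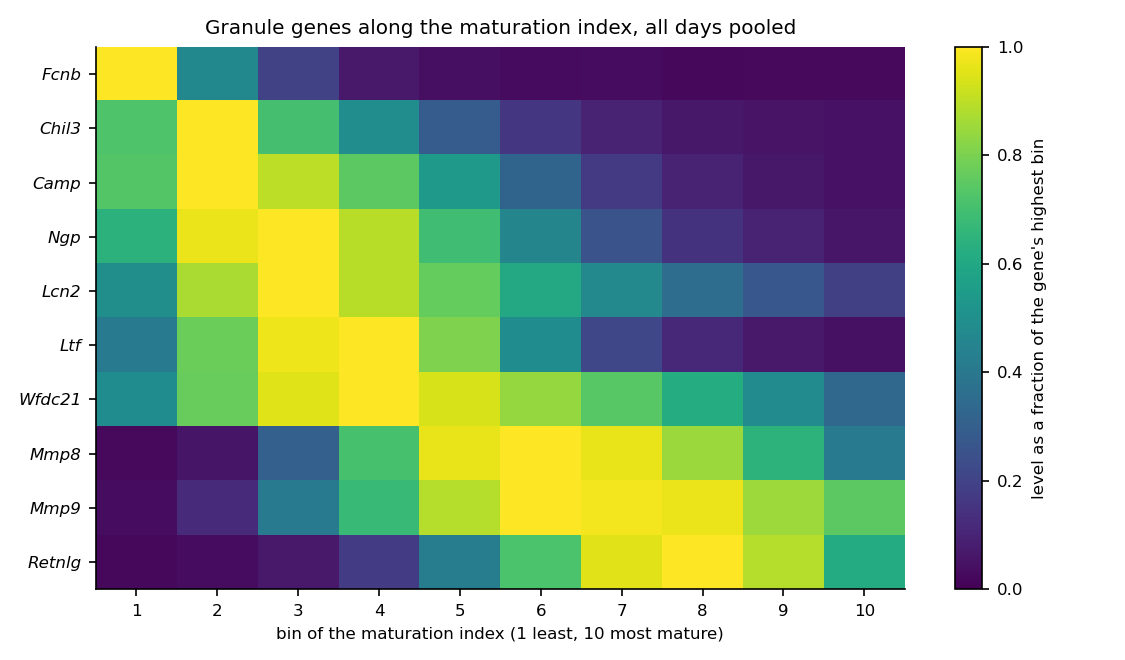
Level of each gene (rows) in 10 bins of equal cell number of the maturation index (columns, bin 1 least and bin 10 most mature), as a fraction of the gene's own highest bin, all days pooled. The highest bin moves from 1 for Fcnb through 2 to 4 for the other secondary genes and Wfdc21 to 6 for Mmp8 and Mmp9 and 8 for Retnlg.

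The steps between stages were counted where a gene passed 2-fold in the same direction on all 5 days. From GMP/promyelocyte-like to Cebpe+ promyelocyte-like cells, 6 of the 10 were higher (Camp, Ngp, Lcn2, Chil3, Fcnb and Wfdc21), against 1.70% of all genes compared, and 0 were lower, against 5.47%. From there to cycling immature cells 4 were higher (Ltf, Ngp, Lcn2 and Chil3), against 0.873%, and 0 were lower, against 6.17%. From cycling to immature cells 3 were higher, against 1.53%: Mmp8 by 9.41- to 11.8-fold, Mmp9 by 6.24- to 7.74-fold and Retnlg by 3.42- to 4.80-fold. Fcnb was the 1 gene lower at that step, where 15.0% of all genes were. From immature to Ceacam10-high cells only Retnlg of the 10 was higher, by 4.28- to 8.48-fold, against 3.45% of all genes. Camp, Chil3 and Fcnb were lower at that step, against 0.815%. From Ceacam10-high to mature cells 0 of 9 compared were higher, against 3.54%, and 3 were lower, against 0.427%, with Ltf at 0.151 to 0.324, Camp at 0.189 to 0.390 and Ngp at 0.192 to 0.398 of the level before. Between mature and Cxcl2-high cells 0 passed in either direction, where 4.28% of all genes were higher and 0.0702% lower.

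Single cells of the immature stage differed more in Retnlg than in Camp. Thinned to 1000 UMIs, the median immature cell held 53 to 63 Camp UMIs, with the 10th percentile at 24 to 37 and the 90th at 82 to 86. For Retnlg the median was 2 to 5 UMIs, the 10th percentile 0 to 1 and the 90th 17 to 31. The variance over the mean was 14.7 to 18.3 for Retnlg and 6.61 to 9.75 for Camp in these cells. In Ceacam10-high cells Retnlg had a median of 38 to 42 UMIs and a ratio of 9.59 to 14.4. Camp there had a median of 12 to 23 UMIs and a ratio of 13.1 to 20.5, so the contrast of the immature stage was not seen. For Mmp9 in immature cells the ratio was 1.28 to 1.48, at a median of 0 to 1 UMI, close to the 1 that counting alone gives.

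The question of the time course was whether these genes changed within a stage over the days after transfer, so each later day was set against day 0. By the study's flow cytometry, leukaemia cells were a very small share of the marrow up to day 9 and clearly more at day 12. The days are thus not even steps of leukaemia burden. All 4 comparisons share the day 0 library. A fold of 1.5 served as the limit of size, for genes detected in 10% or more of the cells of one or the other library. Over the 5 stages from cycling immature cells on, 15 of 47 pairs of a granule gene and a stage were above it at day 3, 10 at day 6, 16 at day 9 and 7 at day 12. Over all genes the shares of pairs above it were 11.4%, 16.9%, 17.5% and 4.96%. At day 6, 10 of 47 is near the background of that comparison. Below 1/1.5, 1 of 47 was found at day 9 and 0 on each of the other days, against 4.61%, 3.59%, 4.62% and 4.61% of all pairs.

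In immature cells the genes above the limit were the late genes Mmp8, Mmp9 and Retnlg. Wfdc21, also listed as late, was at 111, 102, 103, 109 and 123 per 10000 across the days and did not pass it. Mmp8 was at 3.88 per 10000 at day 0 and at 9.62, 11.2, 11.8 and 6.43 at days 3, 6, 9 and 12, and the day 0 library was the lowest of the 5. The folds were 2.48 (95% interval 2.36 to 2.61), 2.88 (2.74 to 3.04), 3.05 (2.90 to 3.21) and 1.66 (1.57 to 1.75). Mmp9 was at 4.42 at day 0 and at 8.18, 8.72, 9.96 and 7.08 afterwards, or 1.85-, 1.97-, 2.25- and 1.60-fold. Retnlg was at 44.3 at day 0 and at 75.2, 81.3, 88.8 and 74.2, or 1.70-, 1.84-, 2.01- and 1.68-fold. These 3 were the members above the limit on each day, 3 of 10 against 9.39%, 14.0%, 17.5% and 3.90% of all genes at days 3, 6, 9 and 12. The median log2 fold of the 10 was 0.05, 0.06, −0.06 and 0.09, and that of all genes 0.15, 0.19, 0.18 and 0.05. Fcnb was the 1 member below 1/1.5, at day 9, at 0.607 (0.55 to 0.67). The members below it on the 4 days were 0, 0, 1 and 0, against 3.50%, 2.75%, 3.30% and 1.34% of all genes.

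The stage is a range of maturation, and cells of different days can lie at different places in it. Within the 10 bins of the maturation index, Mmp8 and Mmp9 were above day 0 in 10 of 10 bins at each later day. Bins 3 and 4 held mostly immature cells, 94.3% and 91.9%. Mmp8 was 3.20-, 3.33-, 5.06- and 1.38-fold of day 0 in bin 3 at days 3, 6, 9 and 12, and 2.59-, 2.82-, 2.95- and 1.40-fold in bin 4. Mmp9 was 2.18-, 2.21-, 2.80- and 1.43-fold in bin 3 and 1.72-, 1.80-, 1.99- and 1.36-fold in bin 4. Both were thus under the 1.5-fold limit in these bins at day 12. Retnlg was 1.42-, 1.75-, 2.24- and 1.69-fold in bin 3 and 1.75-, 1.65-, 1.96- and 1.23-fold in bin 4. The medians over all 10 bins cover the whole lineage, mature cells included, and were 1.54, 1.71, 1.53 and 1.17 for Mmp8, 1.58, 1.58, 1.68 and 1.38 for Mmp9, and 1.18, 1.28, 1.32 and 1.20 for Retnlg, which was above day 0 in 6, 6, 6 and 8 of the 10. In immature cells Retnlg fell under 1.5-fold at days 3, 6 and 9 with finer clusters, at 1.13, 1.16 and 1.23, and with cells of at least 1000 UMIs, at 1.12, 1.28 and 1.39. Its call in this stage depends on where the stage is cut.

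Free RNA moved in the same direction and was measured in cells that should lack these genes. Barcodes with at most 100 UMIs held Mmp8 at 2.25 per 10000 at day 0 and 5.38, 5.43, 5.50 and 5.38 later, and Mmp9 at 2.17 and then 4.17, 4.72, 5.01 and 5.59. T-like cells held 6.51% to 11.7% as many Mmp8 UMIs per cell as immature cells, 6.29% to 13.4% for Mmp9 and 19.9% to 32.4% for Retnlg. With the T-like UMIs per cell taken off, the immature folds at days 3, 6, 9 and 12 were 2.54, 2.85, 2.95 and 1.65 for Mmp8, 1.83, 1.88, 2.08 and 1.55 for Mmp9, and 1.74, 1.74, 1.73 and just under 1.5 for Retnlg. Thinned to 1000 UMIs, 28.7% of immature cells held Mmp8 at day 0 and 53.2%, 58.1%, 61.3% and 44.3% later, against 4.04% to 9.95% of T-like cells. Unthinned, the immature shares were 54.2%, 75.8%, 79.0%, 80.7% and 73.1%, and those of T-like cells 7.47% to 24.0%.

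Mmp8 and Mmp9 were above day 0 in the other 4 later stages too, by smaller folds past the cycling and immature cells. For Mmp8 in Ceacam10-high cells at day 12 the fold was 1.02, close to no difference. In cycling cells Mmp8 was at 0.406, 0.822, 0.95, 1.06 and 0.683 per 10000, with T-like cells at 34.5% to 55.2% of its UMIs per cell. The members above 1.5-fold in cycling cells were 2, 3, 3 and 3 of 10, against 14.3%, 24.1%, 22.2% and 4.97% of all genes: Mmp8 and Mmp9 on each day, and Retnlg at days 6, 9 and 12. At days 3, 6 and 9 these counts are near the background of their comparisons. In Ceacam10-high cells the Mmp8 folds were 1.45, 1.55, 1.46 and 1.02, and those of Mmp9 were 1.45, 1.46, 1.56 and 1.24. In mature cells the Mmp8 folds were 1.54, 1.56, 1.43 and 1.25, and those of Mmp9 were 1.29, 1.30, 1.33 and 1.32. Of the members compared in Ceacam10-high cells, 0, 1, 1 and 0 of 9 were above 1.5-fold, against 8.90%, 10.8%, 15.2% and 5.10% of all genes. None of these counts stood clear of that background. Retnlg, which was above 1.5-fold in immature cells on each later day, was at 0.978 to 1.01 in Ceacam10-high and 0.863 to 1.17 in mature cells.

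**Figure D3:**
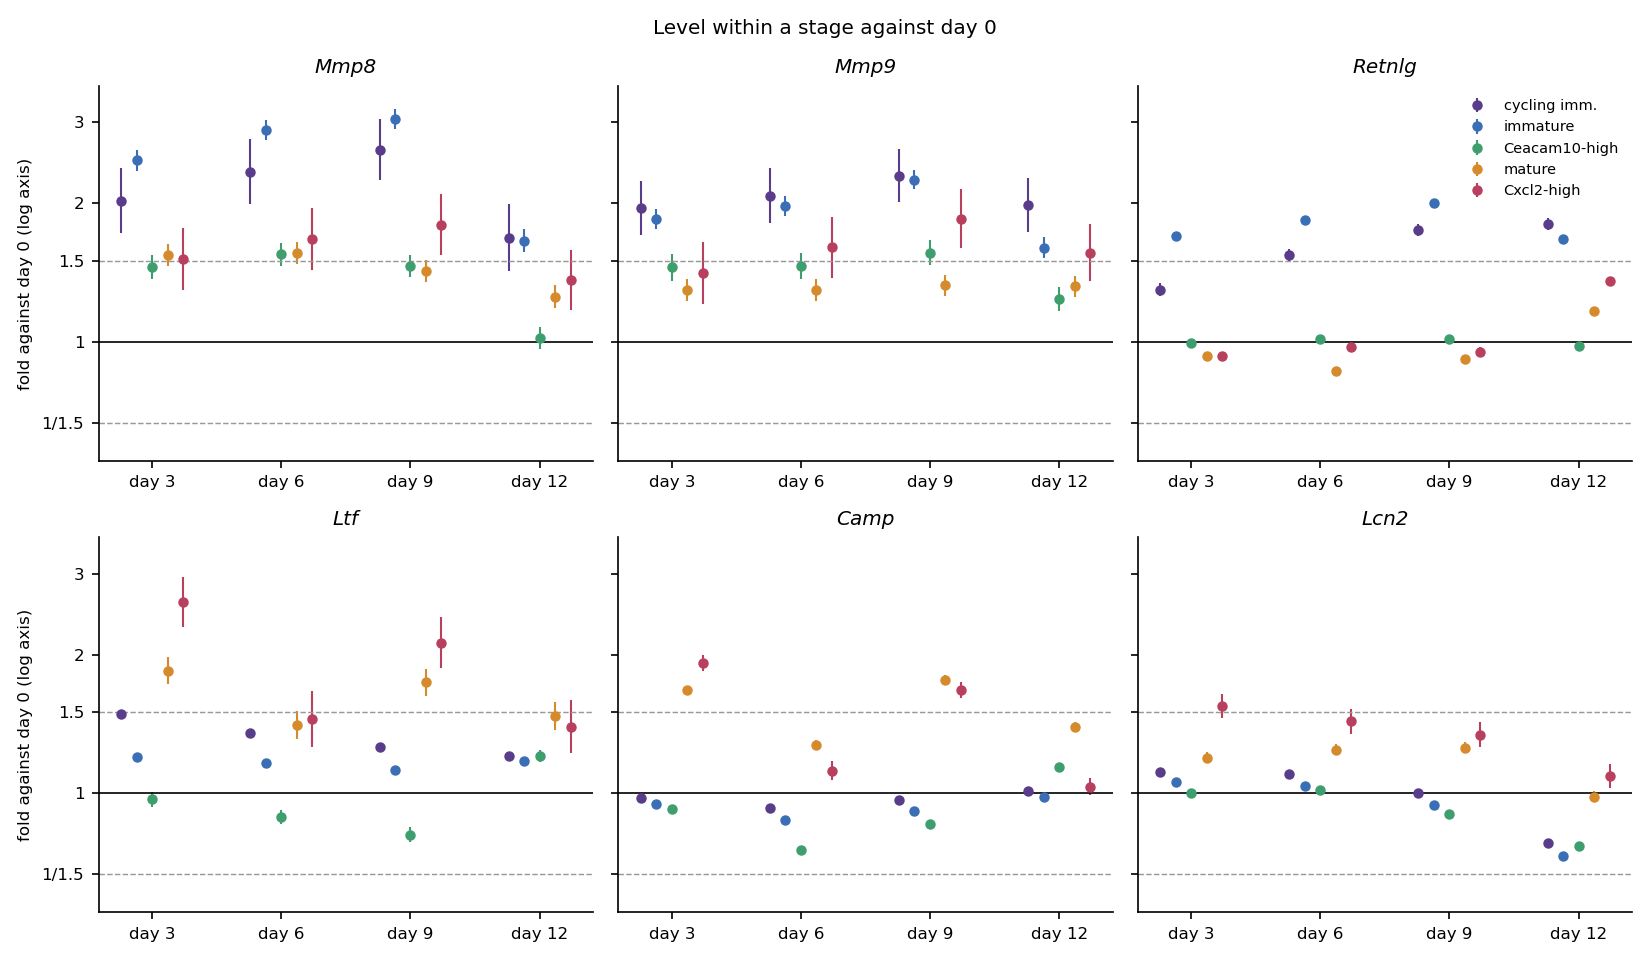
Fold of the level within a stage against day 0 (vertical log axis) at days 3, 6, 9 and 12 for 6 of the genes, with points for the 5 later neutrophil stages and bars for the 95% counting interval. The solid line marks no difference and the dashed lines the 1.5-fold limit in both directions. Mmp8 and Mmp9 are above 1 in the 5 stages shown at each day, though Mmp8 is close to 1 in Ceacam10-high cells at day 12. Retnlg is at 1.68 to 2.01 in immature cells and close to 1 in Ceacam10-high cells. Lcn2 lies below 1 at day 12 in cycling, immature and Ceacam10-high cells.

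In the stages where they were most abundant, the secondary genes stayed within 1.5-fold of day 0. In cycling immature cells Camp was between 0.927- and 1.01-fold of day 0, and in immature cells between 0.873- and 0.981-fold. In bins 3 and 4 of the index it was 1.01- and 1.04-fold at day 12, where the immature stage gave 0.981. Ltf was 1.49-, 1.35-, 1.26- and 1.20-fold in cycling cells, of which none passed the limit. In bin 1 of the index, 75.5% cycling cells, Ltf was 1.90-, 1.52-, 1.37- and 1.07-fold. In bin 2, 50.7% cycling cells, it was 1.53-, 1.38-, 1.39- and 1.26-fold. Ltf thus passed the limit in bin 1 at days 3 and 6 and in bin 2 at day 3. Ngp in immature cells was 1.02-, 0.975-, 0.926- and 0.855-fold. Lcn2 was lower at day 12 in the 3 stages where it was highest, at 0.781-fold in cycling, 0.729-fold in immature and 0.766-fold in Ceacam10-high cells, without passing 1/1.5. Across the bins of the index, Lcn2 at day 12 was above day 0 in 1 of 10, with a median of 0.787. Wfdc21 had the opposite direction at day 12, above day 0 in 10 of 10 bins with a median of 1.17, and at 1.46-fold in mature cells.

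In mature cells, where the secondary genes were low, their levels stood above day 0. Ltf was at 6.00, 11.1, 8.44, 10.4 and 8.82 per 10000, Camp at 50.6, 84.6, 64.4, 89.2 and 70.6, and Ngp at 48.3, 77.9, 58.9, 77.9 and 60.4. With Mmp8 they gave 4, 1, 3 and 0 of 9 members above 1.5-fold in this stage, against 4.25%, 5.66%, 6.02% and 2.20% of all genes. These levels were of the size of free RNA. T-like cells held 163%, 96.4%, 142%, 138% and 68.3% as many Camp UMIs per cell as mature cells, and 116%, 67.3%, 148%, 135% and 54.0% as many Ltf UMIs. No fold could be taken for Camp or Ltf in mature cells after the T-like UMIs were taken off. In Cxcl2-high cells 6, 2, 6 and 1 of 9 members were above 1.5-fold against 15.4%, 16.2%, 17.5% and 8.90%, so days 6 and 12 were near the background. They were Ltf, Camp, Ngp and Chil3 at days 3 and 9, Lcn2 at day 3, Mmp8 at days 3, 6 and 9, and Mmp9 at days 6, 9 and 12, with T-like cells at 41.5% to 102% of the Camp and 29.3% to 94.7% of the Ltf UMIs per cell.

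Among the youngest stage with high Camp, the Cebpe+ promyelocyte-like cells, some secondary genes were lower at the later days. With only 21 to 52 cells per day, Lcn2 was at 25.2, 26.5, 20.5, 13.1 and 12.7 per 10000, Ngp at 150, 136, 132, 94.0 and 91.6, and Ltf at 7.15, 6.14, 6.13, 2.38 and 3.00. These 3 were below 1/1.5 at days 9 and 12, 3 of 10 on each day against 13.5% and 16.6% of all genes, and 0 at days 3 and 6, against 18.2% and 13.6%. For Ltf, T-like cells held 15.1% to 115% as many UMIs per cell, with the 115% at day 9, and for Lcn2 9.59% to 44%.

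Outside the neutrophil lineage most granule UMIs had the make-up of free RNA. Camp was detected in 88.9% to 94.7% of thinned T-like cells, and in 98.6% to 100% of them unthinned. The share of each gene among the UMIs of the 10, divided by the same share in barcodes with at most 100 UMIs, was 0.493 to 1.44 over the genes and days in T-like cells. A gene that a class makes in another proportion than neutrophils would stand apart from the rest on this scale. A ratio near 1 does not show that a class makes none. Immature neutrophil-like cells themselves had ratios of 1.04 to 1.18 for Camp and 1.08 to 1.21 for Ngp. The neutrophil-lineage stages held, on average over the days, 82.6% (Chil3) to 93.4% (Wfdc21) of a gene's UMIs in the cells kept.

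Chil3 stood apart in monocyte-like cells. Its ratio was 2.72 to 5.92 in them and 3.26 to 6.88 in cycling monocyte-like cells, while those of Ltf, Camp, Ngp, Lcn2, Mmp9, Retnlg and Wfdc21 were between 0.614 and 1.31 in both. Mmp8 was at 1.40 to 3.19 and 1.34 to 2.97, and Fcnb at 1.21 to 1.77 and 1.78 to 3.07. Thinned to 1000 UMIs, 73.5%, 48.1%, 62.5%, 46.5% and 53.1% of monocyte-like cells held Chil3 in the day 0, 3, 6, 9 and 12 libraries, against 24.0%, 24.5%, 30.1%, 27.4% and 19.6% of T-like cells. Unthinned, the shares were 84.6% to 92.9% and 41.4% to 67.3%.

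The Chil3 level of monocyte-like cells was highest at day 0. This class was a single cluster of 2212 cells. Clusters of 797, 511 and 82 cells, with 9, 8 and 12 of 12 monocyte markers, stayed without a name. They are not in these values, which so do not cover all monocytes of the marrow. It was 29.5, 12.8, 21.9, 12.0 and 11.9 per 10000, in 562, 376, 407, 470 and 397 cells. The folds were 0.432 (0.416 to 0.449), 0.742 (0.719 to 0.766), 0.406 (0.391 to 0.422) and 0.404 (0.387 to 0.422). It was the 1 member of 10 below 1/1.5 at days 3, 9 and 12, where 3.88%, 4.19% and 2.26% of all genes were, and 0 were at day 6, against 3.62%. With T-like UMIs per cell taken off the folds were 0.391, 0.702, 0.298 and 0.393. In cycling monocyte-like cells the level was 25.6, 13.3, 33.2, 10.7 and 11.8, so day 6 was above day 0 there and days 3, 9 and 12 below. In cycling immature neutrophil-like cells the same gene was between 0.963- and 1.28-fold of day 0. The 2, 2, 4 and 4 members above 1.5-fold in monocyte-like cells, against 6.14%, 5.18%, 6.31% and 4.75% of all genes, were Ltf and Mmp9 on each day, Fcnb and Retnlg at day 9, and Retnlg and Wfdc21 at day 12. For these T-like cells held 40.3% or more of the UMIs per cell.

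Fcnb and Wfdc21 stood apart in GMP/promyelocyte-like cells, at ratios of 6.17 to 14.1 and 2.49 to 3.04. The other 8 genes were between 0.537 and 1.23 there. Fcnb in these cells was at 2.43, 0.929, 1.02, 1.87 and 2.25 per 10000 in 58, 23, 28, 60 and 47 cells, so days 3 and 6 were low.

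**Figure D4:**
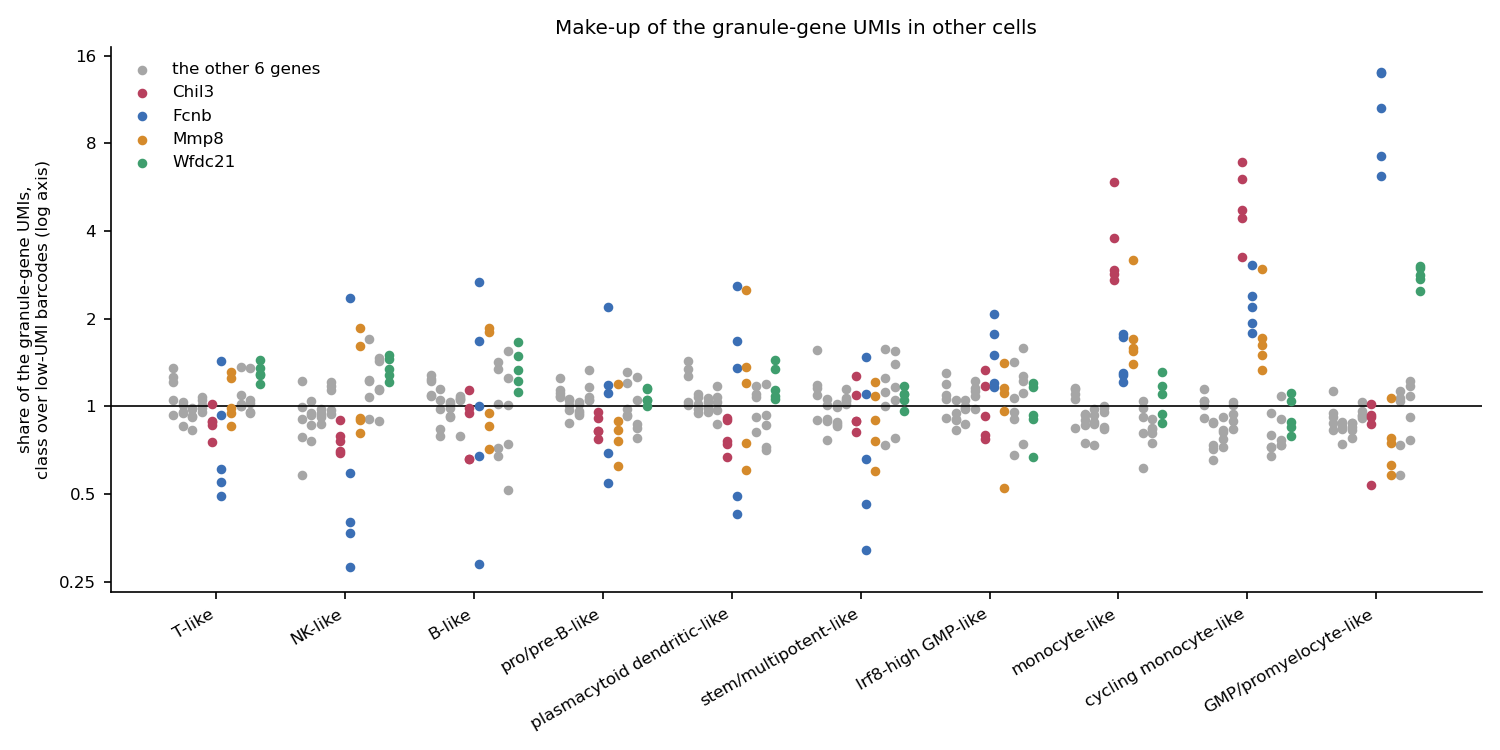
Share of each gene among the UMIs of the 10 granule genes in a class, divided by the same share in barcodes with at most 100 UMIs (vertical log axis), for 10 classes, with 1 point per gene and day. Points at 1 have the make-up of free RNA. Chil3 lies at 2.72 or above in both monocyte-like classes, and Fcnb (6.17 to 14.1) and Wfdc21 (2.49 to 3.04) lie above the other genes in GMP/promyelocyte-like cells.

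Other genes of the same compartments were counted from lists. Of the 12 primary granule genes, Elane, Prtn3, Mpo, Ctsg, Ms4a3 and Prss57 were highest in GMP/promyelocyte-like cells, ahead of all 10 members. All of these but Prss57 were among the markers that named this stage, so their place is not independent of the naming. Elane (neutrophil elastase) was at 117 and Prtn3 (proteinase 3) at 61.2 per 10000 there, as means of the 5 days. The other primary genes did not share that stage, apart from Bpi, which had only 1 UMI there. Cd63 and Serpinb1a were highest in Cebpe+ promyelocyte-like cells, as Fcnb was. Lyz2, lysozyme, was highest in immature cells at 157. Srgn and Ctsc were highest in Cxcl2-high cells, the last stage in the order. Srgn and Serpinb1a were on the marker lists as well. Among 14 regulators measured, Cebpe had its highest level in cycling immature cells, at 5.30, the stage in which Camp and Chil3 were highest. Klf5 shared that stage, at 0.107. Mxd1 reached a higher level than Cebpe, 8.08 in Cxcl2-high cells, as did Spi1 (5.55) and Csf3r (5.49) in mature cells. Cebpb was highest in Cxcl2-high (3.53), Cebpa in GMP/promyelocyte-like (0.634) and Gfi1 in Cebpe+ promyelocyte-like cells (0.469). Cebpe, Mxd1 and Csf3r too were on the marker lists used for naming. In immature cells, 0 of the 8 primary genes compared were above 1.5-fold on any day, 2 were below 1/1.5 at day 3, against 3.50% of all genes, and 0 at the other days. Of 23 other granule and granule-membrane genes compared there, 5, 4, 7 and 4 were above 1.5-fold at days 3, 6, 9 and 12, against 9.39%, 14.0%, 17.5% and 3.90% of all genes. The 4 at day 6 were close to that background. The largest at day 9 of the genes compared were those of Fpr2, a formyl peptide receptor, at 1.75, 1.67, 2.06 and 1.68, and Timp2, a metalloproteinase inhibitor, at 1.72, 1.71, 2.06 and 1.56. Hp, haptoglobin, had the lowest of them at day 9, at 0.723.

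The genes most like the members were sought over 29 sums of a stage and day with at least 50 cells, among 3225 genes, by the correlation of log2 levels. Sums of 1 day share a library and the stages share their order, so the values are a description. For the summed secondary genes they were Olfml2b (r = 0.955), Tbc1d8 (0.946), Ube2l6 (0.942), Cybb (0.941), the heavy chain of the phagocyte oxidase, and Syne1 (0.923). For the summed tertiary genes they were Tmcc1 (0.988), the glucose transporter Slc2a3 (0.986), Pilra (0.983), S100a6 (0.981) and Cd300lf (0.973).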

How the data were processed

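Whole marrow cells of 5 mice, 1 per day, were captured with 10x Genomics 3′ v2 chemistry. The deposited matrices hold unnormalised UMI counts per gene and barcode, which the authors made with Cell Ranger 2.1.1 on mm10, according to the submitters' processing notes and the study's methods. Barcodes down to 1 UMI are listed, and raw counts were used throughout. Barcodes with at least 500 UMIs and at most 10% mitochondrial UMIs were kept. Counts were scaled to 10000, and 1105 genes that ranked in the top 1000 for variability in 2 or more libraries, leaving out the 10 granule genes, gave 20 components, a graph with 20 neighbours and Leiden clusters at resolution 0.6 (22 clusters, leidenalg 0.10.2, Python 3.11.15). The progenitor cluster was split into 7, a step chosen after the clusters were seen. Classes were named from marker lists, and names may differ from the study's. Scrublet's own threshold called 158, 2, 2, 0 and 3 cells and so did not work in 4 of the 5 libraries; no cell was removed for it. T-like cells numbered 736, 216, 361, 420 and 232.

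Levels, folds and shares have exact Poisson, conditional binomial and Clopper-Pearson 95% intervals, which cover counting error only; total UMIs per library were 33425695 to 43554233. No test was made, since each day is 1 mouse and cells are not replicates. The computation was tested on simulated data. Members past a limit are named in each comparison and the others are given with values or as counts; from other lists the text names the genes with the 2 highest levels or the 2 largest folds; further genes of a list were named after their values were seen. The members and all lists were chosen with earlier results of these data known. Subtraction of T-like UMIs, comparison within bins (all 10, and bins 3 and 4) and UMIs per cell were added after the data were seen. Protein sequences were not used here.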

Additional observations from a re-analysis of the deposited data

Results flagged for a closer look

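For some genes, each of the 4 later days lay above day 0 in one class and below it in another. With 1 mouse per day the difference between classes was not tested, all 4 days share the day 0 library, and the values here are medians of the 4 folds against day 0. Ltf was at 0.638 in Cebpe+ promyelocyte-like cells, and at 1.30 in cycling immature, 1.17 in immature, 1.61 in mature, 1.79 in Cxcl2-high and 1.75 in monocyte-like cells. Camp was at 0.825 in Cebpe+ promyelocyte-like and 0.929 in immature cells, and at 1.53 in mature, 1.40 in Cxcl2-high and 1.24 in monocyte-like cells. Ngp was at 0.754 in Cebpe+ promyelocyte-like and 0.864 in Ceacam10-high cells, and at 1.43 in mature, 1.55 in Cxcl2-high and 1.37 in monocyte-like cells. In the mature, Cxcl2-high and monocyte-like cells, T-like cells held 29.3% to 163% as many UMIs per cell of these 3 genes; the part of free RNA in the opposite directions was not tested.

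Chil3 was at 0.753 in GMP/promyelocyte-like, 0.806 in Ceacam10-high and 0.419 in monocyte-like cells, and at 1.64 in Cxcl2-high cells. In Cxcl2-high cells, T-like cells held 55.3% to 153% as many Chil3 UMIs per cell. In GMP/promyelocyte-like cells the ratio of Chil3 to low-UMI barcodes was 0.537 to 1.02, so it did not stand above free RNA. As few as 80 Chil3 UMIs were counted there on a day, and the part of free RNA in that fold was not tested. Fcnb was at 0.595 in GMP/promyelocyte-like cells and at 1.22 in monocyte-like cells. Wfdc21 was at 0.843 in Cebpe+ promyelocyte-like cells, and at 1.13 in mature, 1.24 in Cxcl2-high and 1.34 in monocyte-like cells.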

How the results depend on the processing

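No paired analysis was possible because each day is 1 mouse, and for the same reason no library could be left out within a group. The folds of Mmp8, Mmp9 and Retnlg in immature cells and of Chil3 in monocyte-like cells kept their direction under the alternatives run for them. Folds of the other genes were recomputed only within bins, where some changed side of 1. At day 12 Camp was 0.981 in immature cells and 1.01 and 1.04 in bins 3 and 4. The medians over all 10 bins, which include other stages, were 1.03 for Ngp at day 6 (0.975 in immature cells), 0.976 for Lcn2 at day 3 (1.06) and 1.23 for Fcnb at day 9 (0.607), which was 0.622 and 0.693 in bins 3 and 4. The number of genes highest in the same stage on all 5 days was 9, and 4 with 10 bins of the maturation index in place of 7 stages, a finer grid. The Ceacam10-high stage, highest for Mmp8, held 0 cells without a mitochondrial limit. Of its cells, 43.4% kept that name without the 5% highest doublet scores and 68.4% with a limit of 3 median absolute deviations. The other new clusterings kept 83.4% to 95.5%. The pairs of a gene and a stage past 1.5-fold at days 3, 6, 9 and 12 were 15, 10, 17 and 7. They were 9, 5 and 10 at days 3, 6 and 9 without a mitochondrial limit, which merged away the Ceacam10-high and Cxcl2-high stages so that fewer pairs could be compared. A limit of 2-fold gave 4, 3, 6 and 0. Day 9 gave 11 with a minimum of 1000 UMIs, and day 12 gave 11 without the 5% highest doublet scores, 13 as a mean over cells and 11 with T-like UMIs taken off; the cause was not tested. The mean share of lineage UMIs taken by the genes was 12.07%, and 12.03% without a mitochondrial limit, 12.22% with one of 3 median absolute deviations, 12.14% with at least 1000 UMIs, 11.99% without high doublet scores, 12.06% at resolution 1, 12.09% with the granule genes in the clustering, 10.44% as a mean over cells and 10.66% in thinned cells. In monocyte-like cells 1 gene, Chil3, passed 2 times the median ratio to low-UMI barcodes on all 5 days, and 2 did without high doublet scores. Outside the bins, 13 single folds lost and 2 gained the 1.5-fold call, and those lost were Retnlg in immature cells apart from Mmp9 at day 12 with at least 1000 UMIs. In bins 3 and 4, 6 lost it: Mmp8 and Mmp9 at day 12 in both, and Retnlg at day 3 in bin 3 and at day 12 in bin 4. Outside the bins the immature Mmp8 folds were 1.93 to 2.64, 2.13 to 3.08, 2.35 to 3.21 and 1.54 to 1.75 at days 3, 6, 9 and 12. Stages of 21 to 60 cells per day limit the promyelocyte values.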
